A study of Mus musculus with 15 samples.

Results

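Messenger RNA of 37 genes was followed in sorted nuclei of the mouse ventral tegmental area: the 11 histone deacetylases Hdac1 to Hdac11, the 7 sirtuins Sirt1 to Sirt7, and 19 genes for the corepressor complexes that carry deacetylases to chromatin. The genes were chosen by symbol, with earlier results of these data known, and all 37 were present among the 35976 genes of the count table. The nuclei came from male mice, 8 to 12 weeks old and heterozygous for the DAT-Cre allele (B6.SJL-Slc6a3tm1.1(cre)Bkmm/J), which places Cre recombinase in cells that use the dopamine transporter gene. All mice, those of every group, carried this allele and had received AAV5-DIO-KASH-HA in the ventral tegmental area, a Cre-dependent virus that puts an HA tag on the nuclear envelope, with 14 days allowed for it to act. Nuclei carrying the tag are called DA nuclei here and those without it non-DA nuclei. Each sample pooled tissue of 2 mice.

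The 4 groups were DA nuclei after 7 days of operant food training (n = 4), DA nuclei taken once cocaine maintenance ended (n = 3), DA nuclei after 21 days of forced home cage abstinence from cocaine (n = 4), and non-DA nuclei after food training (n = 4). The maintenance and abstinence mice had been food-trained, had received a jugular catheter, and had then pressed for intravenous cocaine in daily sessions of 1 hour, for 5 days at 0.3 mg/kg per infusion and for 10 days at 1.0 mg/kg per infusion. Food-trained mice had neither cocaine nor, per the labels' protocols, the catheter surgery that followed training. Cocaine, surgery and the days that passed therefore cannot be told apart in a comparison with food training. No group that pressed for saline was analysed here.

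Lysine deacetylases remove acetyl groups from histone tails and other proteins, and on histones this generally goes with compact, less transcribed chromatin. The class I, II and IV enzymes use zinc, while sirtuins consume NAD. The class I enzymes HDAC1, HDAC2 and HDAC3 work mainly inside large complexes: SIN3, NuRD (built on CHD helicases, MTA, GATAD2 and MBD proteins) and CoREST (RCOR proteins with the lysine demethylase KDM1A) hold HDAC1 and HDAC2, and NCoR (with TBL1X and TBL1XR1) holds HDAC3. REST is a zinc finger repressor that recruits SIN3 and CoREST to neuronal genes. In reward-related brain regions, class I and class IIa deacetylases are known as modulators of behavioural responses to cocaine.

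The labels of the sorted populations were checked against marker genes. The 14 dopamine neuron markers summed to between 6831.1 and 12772.5 CPM, reads relative to the scaled library total, in food-trained DA nuclei, between 8422.2 and 10202.5 CPM at maintenance, between 5991.6 and 9251.3 CPM after abstinence, and between 452.2 and 663.6 CPM in non-DA nuclei. The labels call the latter non-dopaminergic neurons, but the sort kept every untagged nucleus: 10 oligodendrocyte markers summed to between 9847.5 and 23351.3 CPM there, against 1760.3 to 2805.8 CPM in food-trained DA nuclei. Astrocyte markers (7 genes) stood at 1514.4 to 3090.5 CPM in non-DA and 755.1 to 994.7 CPM in food-trained DA nuclei, and microglia markers (7 genes) at 1598.7 to 3107.7 and 517.1 to 933.6 CPM. Within the astrocyte list 4 genes were lower in DA nuclei and 3 were not (Gfap, S100b and Aldh1l1). Markers of other neurons overlapped between the populations. GABA neuron markers (3 genes) summed to 191.8 to 262.1 CPM in non-DA and 160.7 to 220.2 CPM in food-trained DA nuclei. Glutamate neuron markers (2 genes) summed to 380.9 to 645.2 and 159.6 to 631.0 CPM. No marker of these lists was at 0 in every library of a group. Total counts per library ranged from 25813697, in food-trained DA replicate 3, to 59046618. The 3 maintenance libraries and non-DA replicate 2 had the 4 lowest slopes of log2 CPM on the GC content of transcripts, at -0.0372, -0.0224, -0.0376 and -0.0248 per percent GC, and are called the low-slope libraries here. The slopes form no clear break there: the next, food-trained DA replicate 2 at -0.0167, lay close to maintenance replicate 2, and the other 10 ran from -0.00312 to 0.0322.

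All 37 genes were detected, and 34 of them had a mean above 10 CPM in every group. Per kilobase of exon, which is the scale on which genes can be compared, the 3 most abundant in food-trained DA nuclei were Hdac3, the catalytic subunit of NCoR (63.96 ± 17.3 CPM per kb, SD, n = 4), Chd4, the main helicase of NuRD (53.95 ± 7.94), and Hdac11, the only class IV enzyme (42.72 ± 8.48). The spreads of neighbours in this order overlapped, so the order is not resolved. The next were Sirt7, a nucleolar sirtuin, at 18.19 and Hdac10, a class IIb enzyme, at 13.88 CPM per kb. The same leading genes, in another order, headed the list in non-DA nuclei: Hdac3 at 44.22, Hdac11 at 37.06 and Chd4 at 34.01 CPM per kb.

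Within families the levels were uneven. Among class I enzymes in food-trained DA nuclei, Hdac3 stood at 63.96 CPM per kb and Hdac1 at 10.87, while Hdac8 and Hdac2 stood at 3.31 and 2.84. Among class IIa enzymes, which shuttle between nucleus and cytoplasm, Hdac5 stood at 7.31, Hdac4 at 3.82, Hdac7 at 3.47 and Hdac9 at 2.12 CPM per kb. The sirtuins ran from 18.19 for Sirt7 to 3.21 for Sirt1, with the cytoplasmic tubulin deacetylase Sirt2 at 11.58, and the mitochondrial Sirt5 and Sirt3 at 10.57 and 8.29. Of the helicases of NuRD, Chd4 stood at 53.95, Chd3 at 10.96 and the neuronal paralog Chd5 at 6.56 CPM per kb. In the other complexes the leading members were Sin3b at 7.99 (Sin3a 5.89), Ncor1 at 10.20 (Tbl1x 9.24, Tbl1xr1 2.48), and Rcor3 at 4.38 (Kdm1a 3.12).

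The lowest gene on this scale was Rest, at 0.747 CPM per kb in food-trained DA nuclei, with Rcor2 next at 1.25. Rest stood at 1.66, 9.43, 0.723 and 9.78 CPM in the 4 food-trained DA libraries, so the libraries fell into a low and a higher pair. At maintenance it stood at 1.67, 4.34 and 2.84 CPM, and in non-DA nuclei at 9.47, 13.8, 11.1 and 9.06 CPM. Its counts were between 20 and 663 per library. Rcor2, a CoREST scaffold, had 0 counts in maintenance replicate 1, and Gatad2a, a bridging subunit of NuRD, had 0 counts in food-trained DA replicate 3 and 460 to 917 in the other libraries of that group.

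**Figure D1:**
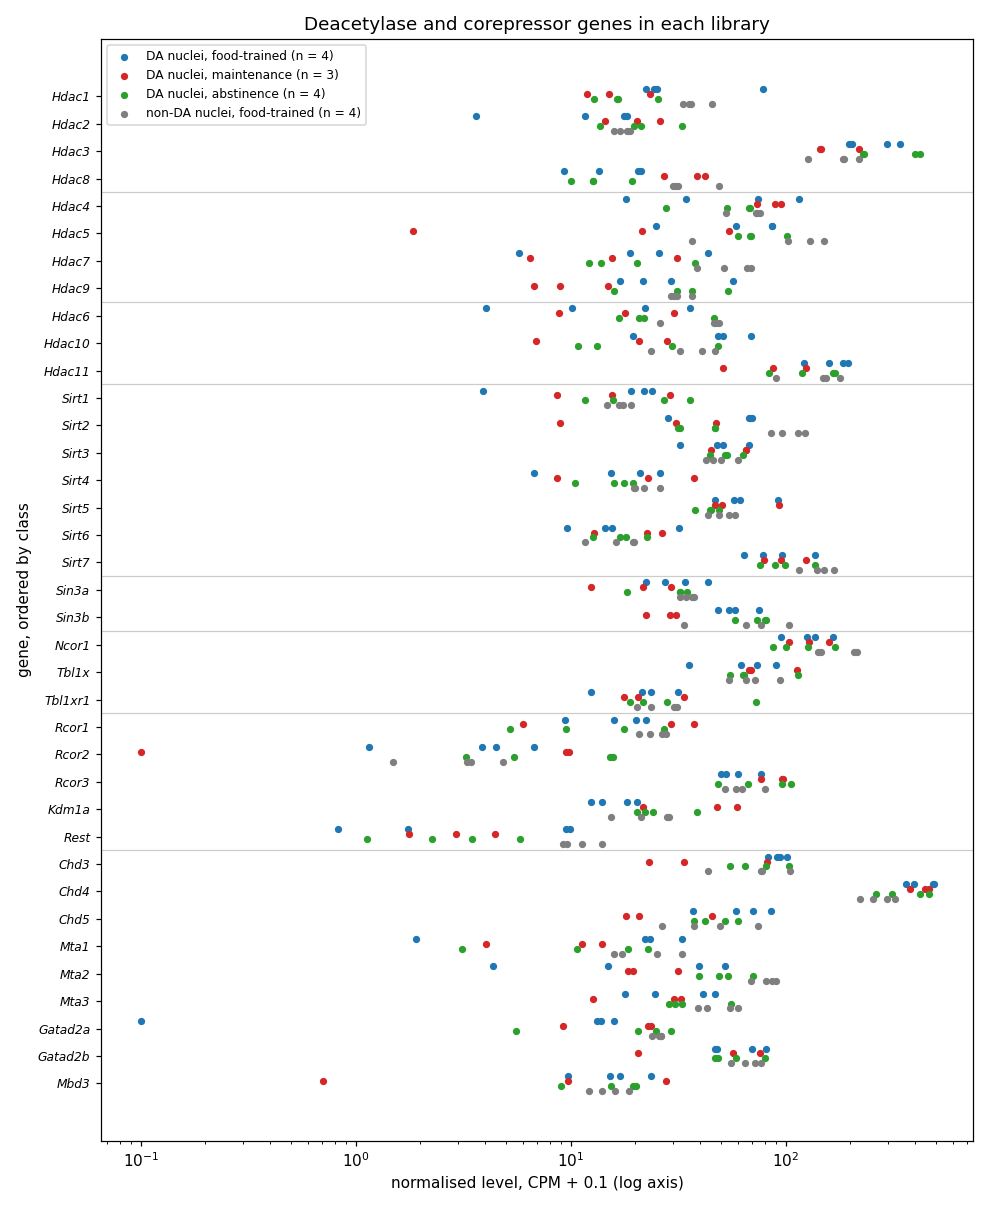
Each point is the level of a gene in a library, in CPM plus 0.1 on a log axis, with genes on the vertical axis in order of class and colours for the 4 groups (DA nuclei after food training n = 4, maintenance n = 3, abstinence n = 4, and non-DA nuclei after food training n = 4). Chd4 (222.2 to 488.2 CPM) and Hdac3 (126.9 to 421.6 CPM) lie to the right in every group, Rest and Rcor2 to the left, and the grey points of the non-DA libraries lie closer together than the others for most genes.

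Replicates of DA nuclei varied more than those of non-DA nuclei. The median SD of log2 CPM over the 37 genes was 0.57 in food-trained DA nuclei, 0.61 at maintenance, 0.44 after abstinence and 0.26 in non-DA nuclei, beside 0.75, 0.62, 0.53 and 0.33 over all 19786 genes of the population test. The steadiest gene in food-trained DA nuclei was Chd3 (SD 0.12) and the least steady Gatad2a (SD 2.44), which has the library with 0 counts. At maintenance the steadiest was Chd4 (SD 0.16).

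The start regions of these genes were read from RefSeq's GRCm38.p6 promoter table (250 bases before to 50 after each start), which held 43 starts of 31 of the 37 genes. The GC box, searched as the letters GGGCGG on both strands, was present in 32 of the 43 promoters of these genes (74.4%), at least once for 27 of the 31 genes, and in 35.7% of the 32851 promoters in the table. The median GC content of the genes' promoters was 62.0%, with a median of 22 CpG dinucleotides, against 52.7% and 7 over all promoters. A match of letters describes the window and does not show that a factor binds. The CRE letters TGACGTCA were in 0 of the genes' promoters and in 1.79% of all, the E-box letters CACGTG in 3 of the 43 (7.15% of all promoters), and the ETS letters CCGGAAG in 6 (8.86%). Shown here, from 100 bases before to 20 bases after the start, are the gene that passed the test between populations (Chd4, with both of its starts) and the 3 with the lowest p between maintenance and food training (Sin3b, Kdm1a and Hdac9, the last with the first of its 2 starts in the table), with GC boxes in capitals. They lie at chr6:125095881-125096000 and chr6:125096063-125096182 (Chd4, plus strand), chr8:72723170-72723289 (Sin3b, plus strand), chr4:136602704-136602823 (Kdm1a, minus strand) and chr12:34917076-34917195 (Hdac9, minus strand).
Chd4 start 1: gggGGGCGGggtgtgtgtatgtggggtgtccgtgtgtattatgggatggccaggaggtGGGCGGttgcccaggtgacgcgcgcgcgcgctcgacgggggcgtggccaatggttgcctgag
Chd4 start 2: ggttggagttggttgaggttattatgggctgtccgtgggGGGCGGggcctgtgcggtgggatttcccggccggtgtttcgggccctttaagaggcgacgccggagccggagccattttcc
Sin3b: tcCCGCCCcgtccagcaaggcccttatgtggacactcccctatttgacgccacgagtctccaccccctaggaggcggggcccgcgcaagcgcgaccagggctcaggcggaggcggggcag
Kdm1a: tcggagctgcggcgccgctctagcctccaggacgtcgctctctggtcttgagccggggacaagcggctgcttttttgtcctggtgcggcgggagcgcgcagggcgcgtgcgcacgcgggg
Hdac9 start 1: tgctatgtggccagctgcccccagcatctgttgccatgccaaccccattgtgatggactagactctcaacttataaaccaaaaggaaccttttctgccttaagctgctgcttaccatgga
The Chd4 windows hold 2 and 1 GC boxes and that of Sin3b 1, while those of Kdm1a and Hdac9 hold 0. That of Kdm1a is still rich in CpG (17 dinucleotides, 71.7% GC), whereas that of Hdac9 has 0 CpG and 49.2% GC; the window at the other Hdac9 start, not printed, has 1 CpG, 45.0% GC and 0 GC boxes.

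The first comparison asked which of these genes differ between DA and non-DA nuclei in food-trained mice. Chd4 was the 1 member that passed the test and was higher in DA nuclei; no member passed in the other direction. In edgeR's quasi-likelihood F-test, adjusted after Benjamini and Hochberg over all genes, 1 of 37 members passed the threshold of 0.05, beside 12.8% of the 19786 genes tested (3.63% higher and 9.17% lower). An unadjusted p under 0.05 was found for 6 members (16.2%), beside 24.3% of all genes (9.06% higher and 15.3% lower). With the replicate number as a block, an unadjusted p under 0.05 was found for 10 of the 37 members, beside 25.0% of all genes, so the members' share was below that of all genes without the block and not with it. Without non-DA replicate 1 or without non-DA replicate 3 the count was 3 members (8.11%), beside 19.3% and 19.8% of all genes. Differences ran both ways, 13 positive and 24 negative, with a median log2 fold change of -0.17 beside -0.21 over all genes. In bulk samples such as these, fewer cells of a type and less RNA per cell cannot be told apart.

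Chd4 lies at chr6:125095980-125130591 (GRCm38.p6). Its level was 392.9, 488.2, 364.0 and 485.5 CPM in the DA libraries and 253.3, 222.2, 320.6 and 295.0 CPM in the non-DA libraries. All 4 DA libraries lay above all 4 non-DA libraries, from counts of 10071 to 22741 reads per library. The log2 fold change was 0.68 (SE 0.19, 95% interval 0.24 to 1.11), a 1.60-fold difference, with an edgeR adjusted p of 0.0493. The call sat at the threshold: with the replicate number as a block the value was 0.68 with an adjusted p of 0.116, and when each of the 8 libraries was left out in turn it was kept once, without food-trained DA replicate 3 (0.78, adjusted p 0.0236), the others giving 0.59 to 0.79 with adjusted p between 0.0501 and 0.132. Chd3 and Chd5, the paralogous helicases, differed by 0.30 and 0.44 on the log2 scale, with adjusted p of 0.559 and 0.549, and their ranges overlapped.

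The other 5 members with an unadjusted p under 0.05 had negative differences, and none of them passed after adjustment. Hdac8, an X-linked class I enzyme that deacetylates cohesin, stood at 9.24, 20.4, 13.4 and 21.1 CPM in DA and at 29.6, 48.8, 31.4 and 30.4 CPM in non-DA nuclei. Its groups did not overlap; the log2 difference was -1.12 (SE 0.36) with an adjusted p of 0.0798 by edgeR. DESeq2's test gave -1.08 with an adjusted p of 0.0183, and a correction for GC content gave -1.17 with 0.046. Sirt2, known in the brain as an enzyme abundant in oligodendrocytes, stood at 67.9, 67.5, 69.5 and 28.4 CPM in DA and at 122.2, 113.3, 95.7 and 85.4 CPM in non-DA nuclei, with a log2 fold change of -0.82 (SE 0.30, adjusted p 0.117). The groups did not overlap, and the oligodendrocyte markers moved the same way, as given above; their part in the difference was not tested.

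Mta2, a scaffold subunit of NuRD, stood at 52.0, 14.7, 4.23 and 39.4 CPM in DA and at 89.9, 68.5, 86.3 and 81.2 CPM in non-DA nuclei. All DA libraries lay below all non-DA libraries, but the DA libraries spread widely, and the log2 fold change of -1.55 (SE 0.62) had an adjusted p of 0.162. Hdac7, a class IIa enzyme, stood at 25.7, 43.5, 5.67 and 18.8 CPM in DA and at 68.6, 38.5, 65.7 and 51.5 CPM in non-DA nuclei, so that the groups overlapped (-1.25, SE 0.53, adjusted p 0.182). Sirt7 stood at 96.1, 63.7, 136.6 and 78.1 CPM in DA and at 150.7, 167.4, 140.2 and 115.1 CPM in non-DA nuclei, with overlap. Its log2 fold change was -0.60 (SE 0.25, adjusted p 0.183), and without food-trained DA replicate 3, its highest DA library, it was -0.82 with an adjusted p of 0.0319.

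Counted by whether the CPM ranges overlap, 5 members had separate groups (13.5%), beside 26.1% of all genes: Chd4 above, and Mta2, Sirt2, Hdac8 and Gatad2a below. By class, all 4 class IIa enzymes and all 3 NCoR subunits had negative differences (medians -0.43 and -0.23), as did 4 of the 5 CoREST and REST genes (median -0.51). The median over all genes was -0.21, and that of the NCoR subunits lay near it. The sirtuins were split 4 to 3 with a median of 0.01, and NuRD 4 to 5 with a median of -0.12. Apart from Chd4 in NuRD, no member of any class passed. The test was least precise for Gatad2a, whose 95% interval ran from -3.81 to 1.32, and for Hdac3 the interval ran from -0.02 to 1.11.

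**Figure D2:**
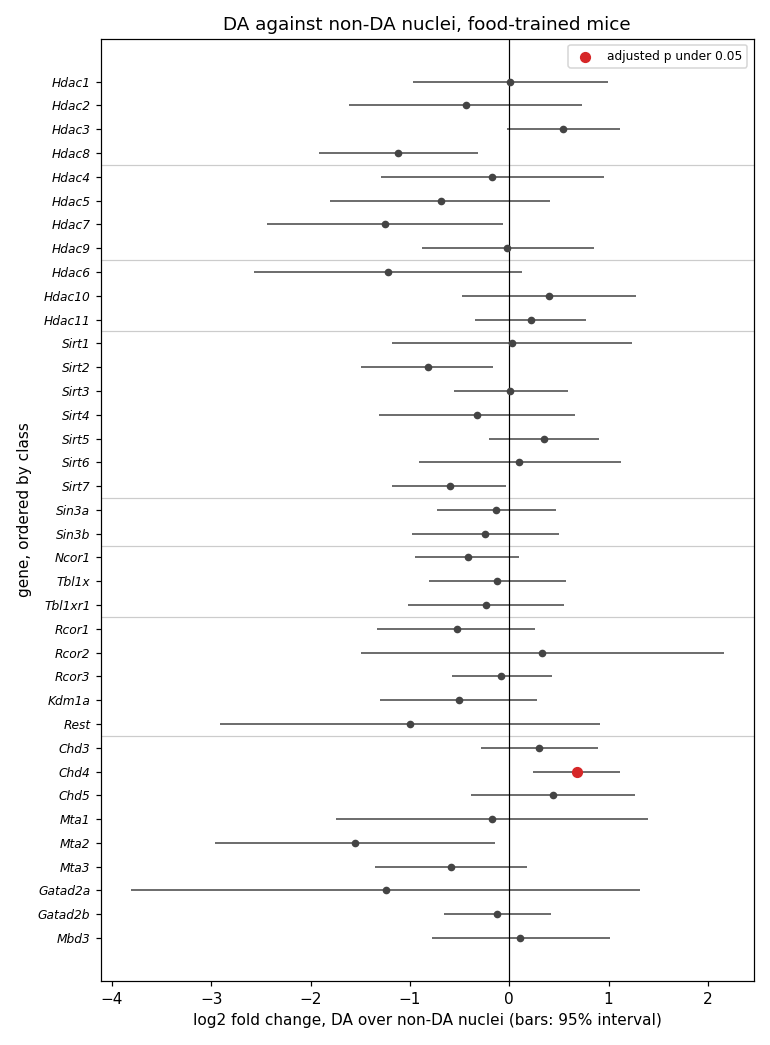
Points are log2 fold changes of DA over non-DA nuclei in food-trained mice (4 libraries each) and bars their 95% intervals from edgeR's quasi-likelihood fit, with genes on the vertical axis in order of class. Chd4, in red, is the 1 gene with an adjusted p under 0.05 (0.68), and most other intervals cross 0.

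Other genes of the pathway, from a list of 42 of which 41 could be tested, gave 1 higher and 1 lower call, or 4.88% beside the 12.8% of all genes called. Sap18, a small subunit of the SIN3 complex, was higher in DA nuclei, at 87.4 ± 23.9 against 44.2 ± 10.1 CPM (SD, n = 4 each), a log2 difference of 1.00 (SE 0.26) with an adjusted p of 0.0344 by edgeR. With the replicate number as a block it was 0.98 with an adjusted p of 0.0576, and with each of the 8 libraries left out in turn the call held in 3 fits, the values running from 0.81 to 1.16. Mef2c, a transcription factor that class IIa deacetylases bind and repress, was lower, at 18.7 ± 7.88 against 54.0 ± 10.5 CPM (-1.52, SE 0.33, adjusted p 0.0140). The block gave -1.59 with 0.082 for Mef2c, and leaving out non-DA replicate 3 gave an adjusted p of 0.0527. Of the remaining subunits, 10 of SIN3 were split 3 to 7 in sign, and all 6 of MiDAC and MIER and all 4 of CoREST and LSD were negative without any passing. The medians of these last 2 lists were -0.85 and -0.91, beside -0.21 over all genes.

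Known target genes of REST, a list of 16 neuronal genes, mostly had positive differences. The list was chosen with earlier results of these data known, so its counts beside all genes are a description. Rest stood at 5.40 ± 4.87 CPM in DA and 10.9 ± 2.16 CPM in non-DA nuclei, a difference that did not pass (adjusted p 0.553). Of its targets, 13 had positive and 3 negative differences, with a median of 0.66 beside -0.21 over all genes, and 3 of the 16 passed as higher in DA nuclei, beside 3.63% of all genes. Syt4, a synaptotagmin of dense-core vesicles, stood at 3100.9 ± 621 against 841.7 ± 234 CPM (1.89, SE 0.28, adjusted p 0.0067). Scg2, a secretogranin of the same vesicles, stood at 2868.4 ± 372 against 1025.5 ± 170 CPM (1.5, SE 0.23, adjusted p 0.0067). Scn2a, a neuronal sodium channel listed under its older symbol Scn2a1, stood at 934.0 ± 173 against 442.9 ± 72.0 CPM (1.09, SE 0.22, adjusted p 0.00937). These genes are markers of neurons as well as targets of REST, and the non-DA nuclei held the glial markers given above; the part of that difference was not tested.

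The next comparison set maintenance against food training in DA nuclei and asked whether a schedule of cocaine intake goes with altered deacetylase or corepressor RNA. No member passed: the count was 0 of 37 by edgeR's quasi-likelihood test, where 25 of 19060 genes (0.131%) did. At an unadjusted p under 0.05 there were 8 members (21.6%), beside 11.6% of all genes (4.88% higher and 6.74% lower): Sin3b, Hdac9, Chd5, Hdac11, Chd3 and Hdac1 lower, and Kdm1a and Hdac8 higher. That count and its excess over all genes changed in both directions with single libraries and with the fit. It was 4 (10.8%, beside 8.17% of all genes) without maintenance replicate 3, 5 (13.5%, beside 9.0%) without maintenance replicate 1, 4 (10.8%, beside 10.9%) with the GC offset and 0 (beside 2.3%) with a term for the 4 low-slope libraries. It was 9 (24.3%, beside 6.57% of all genes) with the replicate block, and 10 without maintenance replicate 2 (beside 11.6%), without food-trained replicate 2 (beside 11.4%) or without food-trained replicate 4 (beside 11.7%). DESeq2's test called 3 members (Sin3b, Hdac9 and Kdm1a) and 1075 genes. Groups did not overlap for 5 members (13.5%), beside 8.45% of all genes.

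Sin3b, a scaffold of the SIN3 complex at chr8:72723270-72758203 (GRCm38.p6), had the lowest p. It stood at 54.1, 74.8, 48.3 and 58.0 CPM after food training and at 28.9, 22.2 and 30.7 CPM at maintenance. All 3 maintenance libraries lay below all food-trained ones, with a log2 fold change of -1.12 (SE 0.28, 95% interval -1.71 to -0.52) and an edgeR adjusted p of 0.152; DESeq2's test gave -1.13 with 0.000213. Beside this stands non-DA replicate 2, a food-trained library with a GC slope in the range of the maintenance libraries: it held 33.5 CPM of Sin3b, where the other 3 non-DA libraries held 65.1 to 103.8. Food-trained DA replicate 2, whose slope was the next lowest, held the highest Sin3b of its group, the 74.8 CPM given above. In a fit of all 15 libraries with a term for the 4 low-slope libraries, the difference for Sin3b was 0.15, of opposite sign. That term can be estimated apart from maintenance only through non-DA replicate 2, so each value given with it rests on that 1 library.

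Kdm1a, the histone H3 lysine 4 demethylase of CoREST, stood at 18.2, 12.3, 13.8 and 20.2 CPM after food training and at 47.7, 58.97 and 21.6 CPM at maintenance. The groups did not overlap, though maintenance replicate 3 lay close to the food-trained range. The log2 fold change was 1.40 (SE 0.43) with an adjusted p of 0.278 by edgeR and 0.0172 by DESeq2's test (1.39), and 0.98 with the term for the low-slope libraries. Hdac8 stood at 38.5, 41.9 and 27.1 CPM at maintenance, above all food-trained values (9.24 to 21.1), with a log2 fold change of 1.16 (SE 0.45, adjusted p 0.394). With the term its value was 0.46.

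Hdac9, a class IIa enzyme, stood at 29.2, 16.9, 56.5 and 21.6 CPM after food training and at 6.67, 14.9 and 8.83 CPM at maintenance. The maintenance libraries lay below all others of this comparison, and the log2 fold change of -1.62 (SE 0.55) had an adjusted p of 0.346 by edgeR and 0.0493 by DESeq2's test. With the term it was -1.47, close to the value without it. Chd5, the neuronal helicase of NuRD, stood at 36.97, 70.6, 85.3 and 58.6 CPM after food training and at 17.9, 45.4 and 20.8 CPM at maintenance (-1.17, SE 0.40, adjusted p 0.349). Hdac11 stood at 184.0, 194.4, 121.1 and 158.2 CPM after food training and at 87.3, 123.7 and 50.9 CPM at maintenance (-0.91, SE 0.34, adjusted p 0.377). In both of these genes maintenance replicate 2 reached into the food-trained range, and with the term the values were -0.17 and -0.10.

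**Figure D3:**
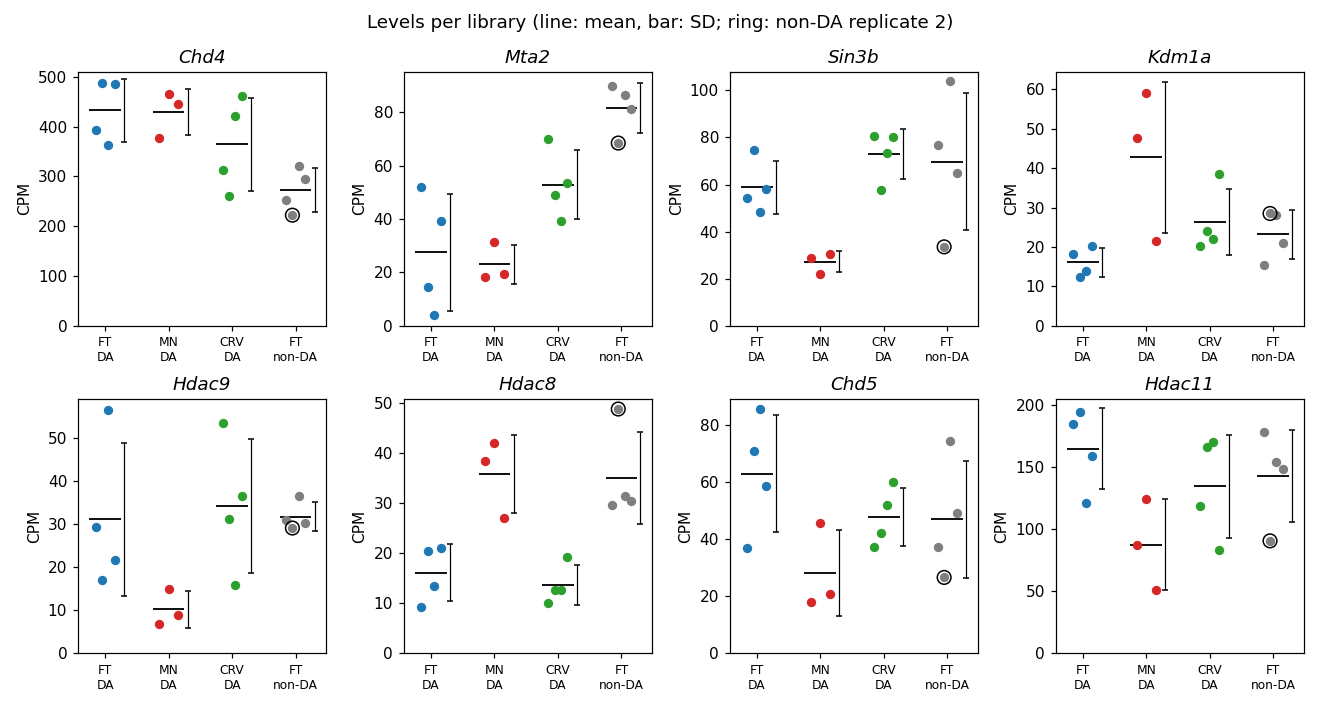
Each panel shows the level of a gene in CPM, from 0, in the 4 groups (FT food training, MN maintenance, CRV abstinence), with a point per library, a line at the mean and a bar of 1 SD. A ring marks non-DA replicate 2, which lies below the other non-DA libraries for Sin3b (33.5 CPM) and Chd5 (26.5 CPM) and above them for Hdac8 (48.8 CPM).

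The difference at maintenance tended to be lower for members of higher transcript GC content, without a clear split in sign. Of the 16 members under 50% GC, 8 were positive and 8 negative, and of the other 21, 8 were positive and 13 negative. Spearman's rho between GC percent and the log2 fold change at maintenance was -0.337 over the 37 genes and -0.326 over 8529 abundant genes; genes share their libraries, so this is a description. Of the 8 members with an unadjusted p under 0.05, non-DA replicate 2 lay outside the other non-DA libraries on the same side for 7 (87.5%) and on the opposite side for 1, Hdac1, beside 62.9% of the 2215 genes with such a p. The count includes narrow cases: Kdm1a at 28.49 CPM against at most 28.05 in the others, and Hdac9 at 29.04 CPM against at least 30.15, above its maintenance values. The 3 maintenance libraries had lower slopes than all other DA libraries, so that within the DA nuclei stage and slope are largely confounded. The food-trained DA library nearest to them in slope, replicate 2, was at the end of its group's range away from maintenance for 3 of the 8 members (Sin3b, Kdm1a and Hdac11), at the end towards it for 2 (Hdac9 and Hdac1) and inside the range of the others for 3.

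Markers of other cell types also differed in these libraries, and within a list they did not move together. Oligodendrocyte markers summed to 1156.5 to 1776.4 CPM at maintenance, against 1760.3 to 2805.8 CPM after food training, with 3 of 10 positive and 7 negative. GABA neuron markers summed to 350.4, 159.3 and 320.5 CPM, against 160.7 to 220.2 CPM. Of these 3 genes, Gad1 and Gad2 had higher means at maintenance (88.7 ± 60.6 and 122.9 ± 65.3 against 39.0 ± 17.6 and 61.5 ± 10.6 CPM, SD, n = 3 and 4; adjusted p 0.409 and 0.378 by edgeR), and Slc32a1 a lower one (65.1 ± 15.0 against 93.8 ± 40.2 CPM, adjusted p 0.721). Of the 53 markers, 10 had an unadjusted p under 0.05 (18.9%, beside 11.6% of all genes), 3 higher at maintenance and 7 lower. Among them were Mbp of oligodendrocytes (263.5 ± 87.9 against 1050.0 ± 260 CPM, -2.0, adjusted p 0.0999 by edgeR), Pitx3 of dopamine neurons (2.58 ± 1.46 against 28.4 ± 22.6 CPM, -3.47, 0.130) and Aldh1l1 of astrocytes (10.5 ± 7.52 against 47.1 ± 10.3 CPM, -2.18, 0.162). The dopamine neuron list was split 5 positive to 9 negative (median -0.03) and the astrocyte list 4 to 3. Astrocyte markers summed to 774.2 to 994.6 CPM at maintenance and 755.1 to 994.7 CPM after food training. The 3 higher were Gad1, Gad2 and P2ry12 of microglia (1.01, adjusted p 0.289 by edgeR), whose list was split 2 positive to 5 negative. The 1 that passed, Olig1, of the oligodendrocyte precursor list, was lower at maintenance (0.0694 ± 0.120 against 32.7 ± 16.6 CPM, adjusted p 0.0103 by edgeR). The rest of its list did not follow it, with Pdgfra, Cspg4 and Olig2 positive, Gpr17 negative and none of these 4 near the threshold (adjusted p 0.608 to 0.887); the sum of the list was 15.61 to 49.48 CPM against 16.41 to 79.51 CPM. The part of these markers in the members' values was not tested.

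**Figure D4:**
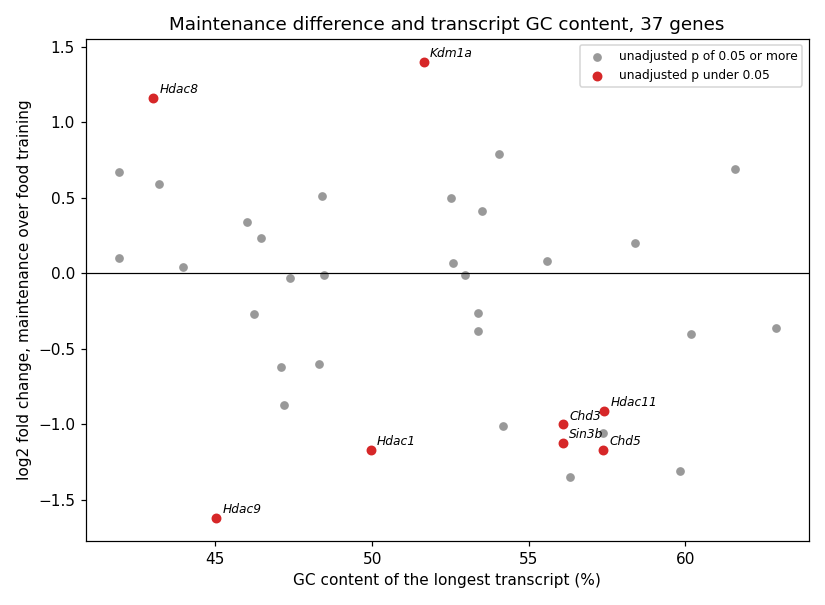
Each point is a gene, with the GC content of its longest transcript in percent on the horizontal axis and its log2 fold change of maintenance (n = 3) over food training (n = 4) in DA nuclei on the vertical axis. The 8 genes with an unadjusted p under 0.05 are red and named; those above 55% GC among them (Sin3b, Chd3, Chd5 and Hdac11) all lie below 0, and rho over the 37 points is -0.337.

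By complex, 8 of the 9 NuRD genes had a negative difference at maintenance (median -0.36 beside -0.01 over all genes) and Gatad2a a positive one. The exception in size was Chd4, which stood at 377.3, 465.3 and 446.3 CPM at maintenance, with a log2 fold change of -0.01 and a 95% interval of -0.56 to 0.53. Of the 9 NuRD genes only Gatad2b (46.22%) had a transcript GC content under 50%. The median over all genes was not matched for GC content. Of the CoREST and REST genes, 4 of 5 were positive (median 0.59), Rest itself being negative (-0.87, SE 1.25). Class IIa enzymes were negative in 3 of 4 (median -0.86), Hdac4 being the other. The 7 sirtuins had a median of 0.08, from Sirt2 at -1.01 (SE 0.50) to Sirt4 at 0.41 (SE 0.60), and none had an unadjusted p under 0.05. Over all members, 16 were positive and 21 negative.

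At maintenance 0 of the 41 further pathway genes passed, and 3 had an unadjusted p under 0.05 (7.32%, beside 11.6% of all genes), 2 positive and 1 negative. Ctbp2, a CtBP corepressor, was at 73.1 ± 9.60 CPM against 29.0 ± 20.5 after food training (1.33, adjusted p 0.376), Tle1 at 48.5 ± 12.7 against 30.3 ± 4.93 (0.67, 0.416), and Tle2 at 6.74 ± 7.53 against 54.6 ± 56.8 (-3.02, 0.400). The REST targets were split 8 to 8 in sign with a median of 0.00 and 0 calls. The lowest p among them were those of Vgf, a neuropeptide precursor (-1.68, adjusted p 0.247), Stmn2, a microtubule regulator (0.85, 0.287), and Snap25, a SNARE protein of synaptic vesicles (0.56, 0.396).

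Abstinence was then set against food training, to ask what differs in DA nuclei 21 days after the last cocaine session. Neither a member nor any other gene passed (0 of 37 members, and 0.0% of 19060 genes by edgeR's quasi-likelihood test); 819 genes (4.3%) and 1 member (2.7%), Hdac1, had an unadjusted p under 0.05, a count that ran from 0 to 2 members when a library was left out. Of the 53 cell type markers, 4 had such a p (7.55%), all lower after abstinence: Mobp (-1.02) and Cldn11 (-1.19) of oligodendrocytes and Lmx1b (-2.93) and Th (-0.70) of dopamine neurons, each with an adjusted p of 0.999974 by edgeR. Of the 14 dopamine neuron markers, 13 were negative (median -0.30), and the part of these markers in the members' values was not tested. DESeq2's test called 168 genes and 0 members. Hdac1, a catalytic subunit of SIN3, NuRD and CoREST, stood at 24.2, 22.2, 78.4 and 25.0 CPM after food training and at 25.3, 12.7, 16.4 and 16.4 CPM after abstinence. The ranges overlapped, and food-trained replicate 3 stood far above the rest of its group. The log2 fold change was -1.09 (SE 0.48, adjusted p 0.999974), and -0.43 without that library. Kdm1a was the 1 member whose groups did not overlap (2.7%, beside 3.34% of all genes): it stood at 20.3, 23.9, 22.1 and 38.6 CPM after abstinence, just above the food-trained maximum of 20.2, with a log2 fold change of 0.70 (SE 0.40).

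The intervals of this comparison bound the differences for the steadier genes. For Chd4 the 95% interval was -0.76 to 0.25, for Sin3b -0.23 to 0.84, for Hdac3 -0.33 to 0.93 and for Sirt7 -0.53 to 0.71 on the log2 scale. For Rest, Rcor2 and Gatad2a the SE was over 1 (1.14, 1.32 and 1.06), so that even differences of several-fold were not detectable at this precision. The members were 17 positive and 20 negative, with a median of -0.04 beside 0.04 over all genes. Of the further pathway genes, 25 of 41 were positive, and 0 had an unadjusted p under 0.05; the lowest was that of Ctbp2 (0.80, SE 0.46). Among REST targets, 9 were positive and 7 negative, again with 0 at an unadjusted p under 0.05.

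**Figure D5:**
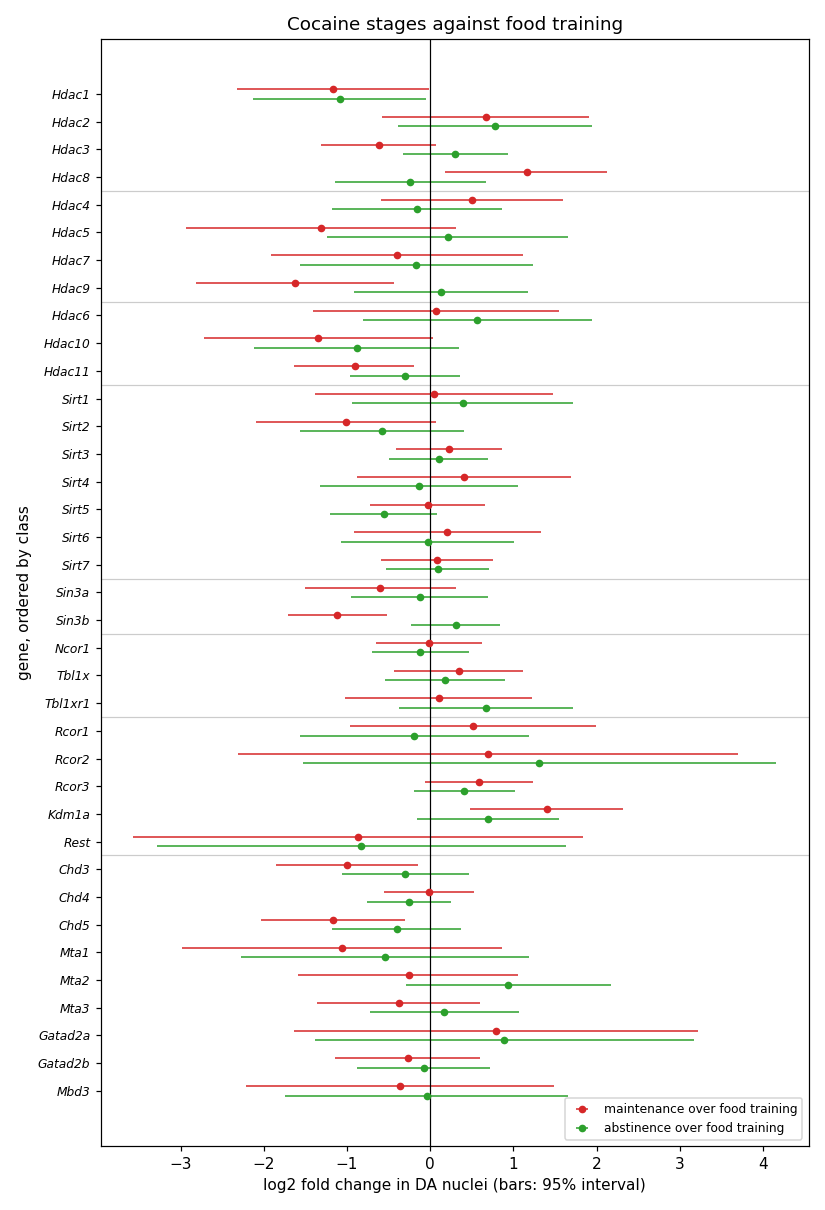
Points are log2 fold changes in DA nuclei of maintenance (red, n = 3) and abstinence (green, n = 4) over food training (n = 4), with 95% intervals from edgeR's fit of the 11 DA libraries and genes in order of class; both share the food-trained libraries. No gene passed in either comparison; the red interval of Sin3b lies below 0 (-1.71 to -0.52) and the green one across it (-0.23 to 0.84).

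Abstinence against maintenance compared the 2 groups that had taken cocaine. Again 0 of 37 members passed by edgeR's quasi-likelihood test, where 34 of 19060 genes (0.178%) did. An unadjusted p under 0.05 was found for 4 members (10.8%), beside 9.92% of all genes (7.33% higher and 2.59% lower), namely Sin3b, Hdac9 and Hdac3 with positive and Hdac8 with negative differences. Without maintenance replicate 2 the count was 8 (21.6%, beside 9.49% of all genes), and with the term for the low-slope libraries it was 0 (beside 2.6%). The groups did not overlap for 7 members (18.9%), beside 12.2% of all genes: these 4, with Hdac5 and Mta2 above and Hdac4 below. DESeq2's test called 859 genes and 3 members. This comparison shares the maintenance libraries, and hence their GC slope, with that against food training.

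Sin3b had the lowest p of the members here too, at 80.6, 57.8, 73.5 and 80.2 CPM after abstinence against 28.9, 22.2 and 30.7 CPM at maintenance. The lowest abstinence library held more than any maintenance library, and the log2 fold change was 1.42 (SE 0.28, 95% interval 0.82 to 2.02, edgeR adjusted p 0.0716). DESeq2's test gave 1.39 with an adjusted p of 1.63e-06, a GC correction 1.16 with 0.255, and the fit with the term for the low-slope libraries 0.16. Hdac9 stood at 53.5, 31.1, 15.7 and 36.4 CPM after abstinence (1.75, SE 0.56, adjusted p 0.338 by edgeR and 0.0383 by DESeq2's test). Hdac8 stood at 9.94, 12.6, 12.6 and 19.3 CPM, below all 3 maintenance libraries (-1.40, SE 0.46, adjusted p 0.356 by edgeR and 0.0106 by DESeq2's test). Hdac3 stood at 398.3, 230.6, 228.2 and 421.6 CPM after abstinence and at 143.7, 219.2 and 145.5 CPM at maintenance (0.92, SE 0.32, adjusted p 0.415). With the term for the low-slope libraries, the values were 1.61 for Hdac9, -0.70 for Hdac8 and 0.30 for Hdac3.

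In this comparison 8 of the 9 NuRD genes had positive differences, with a median of 0.52 beside 0.05 over all genes. Chd4 was the exception, at -0.24 (95% interval -0.78 to 0.30). Spearman's rho between GC percent and the log2 fold change here was 0.306 over the 37 genes and 0.346 over 8529 abundant genes. The medians were not matched for GC content. All 3 class IIb and IV enzymes and both SIN3 scaffolds were positive, and 4 of 7 sirtuins negative. Over all members 25 were positive and 12 negative, with a median of 0.24. Cell type markers differed here too: 10 of 53 had an unadjusted p under 0.05 (18.9%, beside 9.92% of all genes), 7 higher after abstinence and 3 lower, and Olig1 passed (38.0 ± 10.4 against 0.0694 ± 0.120 CPM, adjusted p 0.00955 by edgeR). Also higher were Pitx3 of dopamine neurons (2.97, adjusted p 0.21 by edgeR) and Slc32a1 of GABA neurons (1.04, 0.451). So were Mbp and Mog of oligodendrocytes (1.24 and 0.73, 0.392 and 0.502). The other GABA neuron markers, Gad1 and Gad2, were negative (-0.33 and -0.43). The 3 lower were Ddc of dopamine neurons (-0.79), Slc1a2 of astrocytes (-0.75) and P2ry12 of microglia (-0.73). Signs were mixed within lists: 6 of 14 dopamine neuron, 7 of 10 oligodendrocyte, 3 of 7 astrocyte and 4 of 7 microglia markers were positive. The summed oligodendrocyte markers overlapped (1137.5 to 2012.0 against 1156.5 to 1776.4 CPM). The part of these markers in the members' values was not tested. Tle5, a short TLE corepressor listed under its older symbol Aes, was the 1 further pathway gene of 41 with an unadjusted p under 0.05 (2.44%, beside 9.92% of all genes; 87.6 ± 23.4 against 48.5 ± 9.86 CPM, 0.85, adjusted p 0.440). Among REST targets Vgf (1.90, adjusted p 0.196), Stmn2 (-0.91, 0.271) and Grin1, an NMDA receptor subunit (1.24, 0.347), had the lowest p, and 0 of 16 passed.

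A test for any difference among the 3 stages in DA nuclei called 0 members and 16 of 19060 genes (0.0839%). It gave an unadjusted p under 0.05 for 6 members (16.2%), beside 7.85% of all genes: Sin3b (adjusted p 0.179), Hdac8, Kdm1a, Hdac9, Chd5 and Hdac3. Without maintenance replicate 1 that count was 2 (5.41%, beside 7.03% of all genes), and without maintenance replicate 3 it was 3 (8.11%, beside 6.5%). Placed side by side, the means of Sin3b were 58.8, 27.3 and 73.0 CPM after food training, at maintenance and after abstinence, those of Hdac9 31.1, 10.1 and 34.2 CPM, and those of Hdac8 16.0, 35.8 and 13.6 CPM. Kdm1a stood at 16.1, 42.7 and 26.2 CPM and Chd5 at 62.9, 28.0 and 47.8 CPM. The deacetylase genes most abundant per kilobase kept high ranks at each stage: among the 37, Hdac3 ranked 1, 2 and 1, and Hdac11 ranked 3 each time, while Rest ranked 37 throughout.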

How the data were processed

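The authors deposited whole-number read counts per gene symbol for 15 libraries; a second deposited table, of 10 of the columns, held the same counts (0 cells differed) and was not used further. The submitters' processing notes name Trim Galore 0.6.7, cutadapt 1.18, STAR 2.7.10a, StringTie 2.1.5, DESeq2 1.38.3 and the builds mm10 and GRCm38. The annotation and the use of strand are not given in the sources used here, so 23 members that overlap another RefSeq gene (4 of them a protein-coding one: Hdac7, Sirt3, Ncor1 and Kdm1a) may share reads with it. Per the labels' protocols, libraries were made with a low-input kit from nuclei sorted for the HA tag and DAPI; no molecular identifiers are mentioned there, so reads are not independent molecules. Each sample was a pool of 2 mice, and p-values measure the spread between such pools.

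From the counts, edgeR 4.0.16 in R 4.3.3 kept genes by filterByExpr, scaled libraries by TMM, and ran two-sided quasi-likelihood F-tests at a Benjamini-Hochberg adjusted p of 0.05 over all genes tested: 19786 in the 8 food-trained libraries and 19060 in the 11 DA libraries. CPM use TMM factors of all 15 libraries. Exon length and GC content came from GENCODE M21 (GC from the longest transcript), positions and promoters from RefSeq, GRCm38.p6. Same-numbered DA and non-DA libraries deviated together (r 0.116, 0.127, 0.262 and 0.243 over 8532 genes), so they were treated as paired in the block alternative; the labels do not state that they come from the same mice. Alternatives were DESeq2 size factors, no filter, the DESeq2 1.42.0 test, a GC offset, the block, leaving out each library, all 15 libraries, and a term for the 4 low-slope libraries. The population fit and the stage fit were tested on simulated counts with known changes. Those counts had the same dispersion for every gene and no GC slopes, outlying libraries or pairing. They cannot show how the fits behave where real libraries have these features. Full values are given for members past the threshold or, failing that, for up to 6 with the lowest p. The members and lists were chosen with earlier results of these data known.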

Additional observations from a re-analysis of the deposited data

Results flagged for a closer look

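In groups of 4 libraries, a library was singled out where its gap to the nearest of the others, over the range of the group, exceeded Dixon's 95% critical value. Of 111 groups of a member tested, 9 were singled out, and chance alone gives about 1 in 20. In food-trained DA nuclei, Hdac1 stood at 78.44 CPM in replicate 3 against 22.19 to 24.96 CPM in the others, and the difference of abstinence from food training moved from -1.09 to -0.43 on the log2 scale without that library. Sirt2 stood at 28.37 CPM in replicate 4 of the same group against 67.45 to 69.51 CPM.

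In non-DA nuclei, the replicate with the lowest GC slope, replicate 2, stood apart for Hdac6, a tubulin deacetylase (25.79 CPM against 46.2 to 48.62), and for Hdac8 (48.82 CPM against 29.65 to 31.38). Hdac4 stood at 52.74 CPM in replicate 4 against 72.3 to 75.92 CPM. Over all 37 members, non-DA replicate 2 was below the other 3 libraries for 16, above them for 11 and within their range for 10.

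After abstinence, both TBL1 subunits of NCoR were high in replicate 1: Tbl1x at 114.5 CPM against 54.8 to 64.03, and Tbl1xr1 at 72.53 CPM against 18.83 to 27.81. In replicate 3, Sin3a was low, at 18.17 CPM against 31.99 to 34.52, and Mta3 was high, at 55.67 CPM against 28.5 to 32.71.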

How the results depend on the processing

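The 1 member called between DA and non-DA nuclei became 0 with no filter on low counts, 0 with the replicate block and 0 with all 15 libraries, 2 with the DESeq2 test and 2 with the GC offset (Chd4 and Hdac8 both times), and 0 to 2 when a library was left out. The 2534 genes called there became 4728 with the DESeq2 test, 775 with the block (413 higher and 362 lower, against 719 and 1815) and 1900 to 3740 when a library was left out. For maintenance against food training, 25 genes became 1075 with the DESeq2 test and 0 with either the block or the term for the 4 low-slope libraries, and the 0 members became 3 with the DESeq2 test. Leaving out a library gave 5 to 78 genes there: 43 and 12 without food-trained replicates 3 and 4, 5, 78 and 7 without maintenance replicates 1, 2 and 3, and 12, 15 and 15 without abstinence replicates 1, 2 and 3. For abstinence against food training, 0 genes became 168 with the DESeq2 test. For abstinence against maintenance, 34 genes became 859 with the DESeq2 test, 2 with the block, 15 with all 15 libraries and 1 with the term, and 0 members became 3 with the DESeq2 test. Leaving out a library gave 6 to 73 genes there: 18 without food-trained replicate 4, 6, 73 and 7 without maintenance replicates 1, 2 and 3, and 14, 12 and 6 without abstinence replicates 1, 2 and 3; the count of members remained 0 in each. The cause of these differences was not tested. One value reversed: Sin3b at maintenance, from -1.12 to 0.15 with the term, whose size comes from 1 library, non-DA replicate 2. Of the other 16 named differences of members, each kept its direction under every alternative run.

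Between populations, the block ended the calls of Chd4, Sap18 and Mef2c and changed no other named call. Same-numbered DA libraries of different stages did not deviate together (r -0.351 to 0.11, and not every library correlated best with its own number), so for the stages the block rests on numbers alone. Precision was lowest for Rest, Rcor2 and Gatad2a, whose SE was over 1 in the comparison of abstinence with food training; Rest and Rcor2 had low counts, and Gatad2a had 1 food-trained library at 0.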
